A study of Mus musculus with 2 samples.

Results

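*Sprr1a* and 7 genes of striated muscle that answer to stretch and mechanical load, *Ankrd1*, *Ankrd2*, *Ankrd23*, *Csrp3*, *Xirp1*, *Xirp2* and *Fhl1*, were examined on 2 Affymetrix mouse expression arrays. The genes were chosen by name, with earlier results of these arrays known, and *Sprr1a* was among the largest rises in those results, so its difference is given as a description. Every probe set was taken whose annotation names exactly 1 gene and that gene is on the list. This gave 9 probe sets for 7 of the 8 genes, out of 34958 probe sets and 18193 genes with a single name. No probe set carried the name of *Xirp2*, which was not analysed here.

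The arrays hold RNA of primary neonatal ventricular cardiomyocytes (mNVCM) from C57BL6/J mice at 2 days after birth, with 1 array per condition. In both conditions cells were kept in low-serum medium and exposed to 1 µM of Dox, an anthracycline that damages DNA. One condition was Dox without pre-treatment. The other was pre-incubated for 3 h with hAFS-CMHypo, the medium conditioned by human amniotic fluid-derived stem cells under hypoxia, before Dox. The labels of the samples give 6 h of Dox for hAFS-CMHypo + Dox and 21 h for Dox alone, whereas the methods of the study give 6 h for both, so pre-incubation and hours of Dox cannot be told apart here. Neither condition was untreated, and no array of cells without Dox was analysed here. Differences are reported as log2 ratios, hAFS-CMHypo + Dox over Dox. No replicate exists for either condition, so the differences carry no standard error or p-value and the precision is limited by the number of arrays. As a yardstick, probe sets of 1 gene scattered around their own mean log2 ratio with an SD of 0.21 (over 5299 genes), called the probe-set spread. It was 0.26 for genes with a mean log2 level under 7 and 0.13 for those at 10 or above. It describes probe sets within these 2 arrays and not cultures. All 10 cardiomyocyte markers lay above 5.10, the median of all values, on the higher array. In bulk RNA, fewer cells of a type and less RNA per cell cannot be told apart.

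*Sprr1a* codes for a small proline-rich protein, first known as a building block of the cornified envelope of skin, which cardiomyocytes and neurons also make under stress. In cardiomyocytes it is known as a target of cytokines that signal through gp130. The other genes belong to the machinery by which the sarcomere senses strain. *Ankrd1*, *Ankrd2* and *Ankrd23* code for the muscle ankyrin repeat proteins, which bind the spring region of titin and also enter the nucleus. *Csrp3*, the muscle LIM protein, sits at the Z-disc, *Fhl1* is a LIM protein that binds titin, and *Xirp1* and *Xirp2* code for the actin-binding Xin proteins of the intercalated disc.

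The 250 bases before the RefSeq gene start (GRCm38.p6) are shown for *Sprr1a*, the gene with the largest log2 ratio, and for *Ankrd1* and *Ankrd2*, which are known to be stress-inducible as well but differed less between the arrays. They are read 5′ to 3′ on the gene's strand, with matches to the searched motifs in capitals. The *Sprr1a* window is chr3:92485882-92486131 on the minus strand, that of *Ankrd1* is chr19:36119845-36120094 on the minus strand, and that of *Ankrd2* is chr19:42035777-42036026 on the plus strand.
Sprr1a: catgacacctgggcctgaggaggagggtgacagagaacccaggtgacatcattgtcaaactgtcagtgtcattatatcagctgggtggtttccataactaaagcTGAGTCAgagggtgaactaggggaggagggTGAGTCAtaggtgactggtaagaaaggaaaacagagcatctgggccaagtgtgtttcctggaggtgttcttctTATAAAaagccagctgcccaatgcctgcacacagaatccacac
Ankrd1: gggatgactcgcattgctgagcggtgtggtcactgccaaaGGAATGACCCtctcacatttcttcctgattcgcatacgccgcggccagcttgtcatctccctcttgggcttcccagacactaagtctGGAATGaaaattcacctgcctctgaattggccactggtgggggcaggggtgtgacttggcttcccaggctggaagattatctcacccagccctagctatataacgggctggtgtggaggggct
Ankrd2: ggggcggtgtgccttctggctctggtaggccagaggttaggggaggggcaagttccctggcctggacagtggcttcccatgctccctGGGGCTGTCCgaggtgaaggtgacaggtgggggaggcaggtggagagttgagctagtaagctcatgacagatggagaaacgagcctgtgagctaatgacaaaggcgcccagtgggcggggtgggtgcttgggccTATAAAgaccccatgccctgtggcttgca

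The search covered 8 motifs on both strands: the TATA box (TATAAA), AP-1 (TGANTCA), STAT (TTCNNNGAA), NF-κB (GGGNNNNNCC), MCAT (CATTCC, bound by TEAD factors), C/EBP (TTGCNNAA), and the CArG box of SRF and the MEF2 site by name. The *Sprr1a* window held 2 AP-1 matches, at bases 146 to 140 and 116 to 110 before the start, and a TATA box at bases 43 to 38. Of all 32851 promoter windows of this length, 6.75% held an AP-1 match, 0.338% held 2 or more, and 12.4% held the TATA box. The *Ankrd1* window held 2 MCAT matches, at bases 210 to 205 and 123 to 118, a motif found in 12.6% of windows. The first overlaps a match to the loose NF-κB motif, which 45.8% of windows hold, and the *Ankrd2* window also held an NF-κB match and a TATA box. These are matches of letters and not sites shown to be bound. RefSeq promoter windows were matched for 7 of the 8 genes. An AP-1 match was also found before *Xirp2*, with a MEF2 match. *Ankrd23* had a STAT and an MCAT match at 1 of its start sites, and the *Sprr1a* window held no STAT match. NF-κB and C/EBP matches lay at 1 of the start sites of *Csrp3*. A CArG match lay at 1 start site of *Fhl1*. That window also held the TATA letters on the opposite strand (TTTATA), at bases 156 to 151 before the start. The other start sites of *Csrp3* and *Fhl1* held no match.

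*Sprr1a* was the only measured member past 2-fold. Its log2 level was 13.42 with hAFS-CMHypo + Dox and 11.44 with Dox alone. The log2 ratio was therefore 1.99, 3.97-fold higher after pre-incubation, and ranked 11 among the rises of all 18193 genes. Over all genes, 0.506% were higher by 2-fold or more and 0.214% were lower by it. Both values lay far above the median of all values, and 1 probe set was named for the gene, so no other probe set checks it. The genes next to it in log2 ratio, among those whose higher array reached the median, were *Fgl2* (2.06) and *Chst11* (2.03) just above and *Serpina3n* (1.97) and *Gcnt2* (1.91) just below. They are a fibrinogen-like protein, a chondroitin sulfotransferase, an acute-phase protease inhibitor and a glycosyltransferase. The likeness is in the log2 ratio over 2 arrays only, and other probe sets of *Chst11* and *Gcnt2* had ratios down to 0.50 and near 0, respectively.

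**Figure D1:**
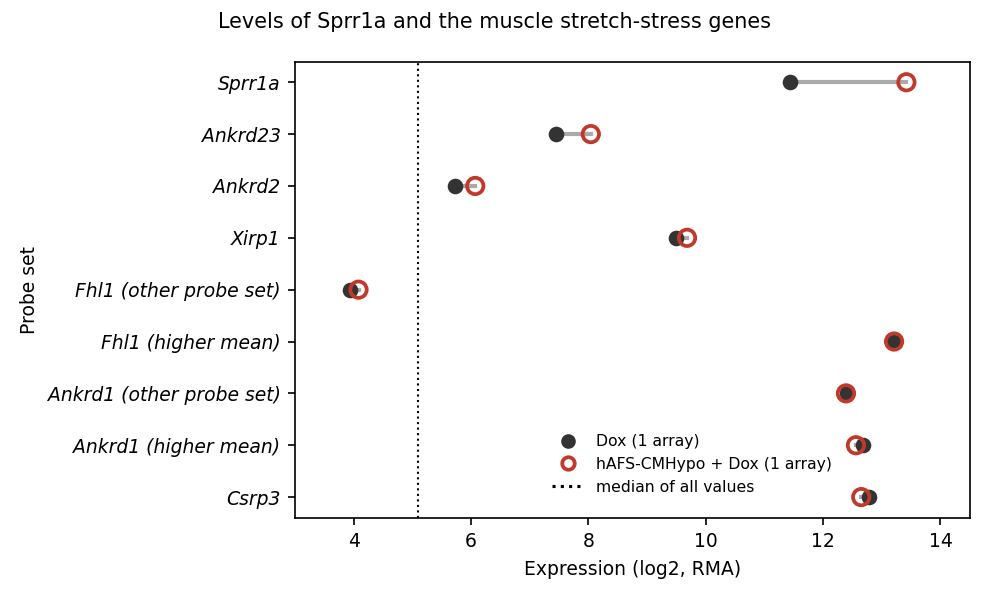
Log2 expression (RMA) of the 9 probe sets of the 7 measured genes on the Dox array (filled points) and the hAFS-CMHypo + Dox array (open points), 1 array per condition; a dotted line marks 5.10, the median of all values. *Sprr1a* is set apart by 1.99 log2 units, *Ankrd23* by 0.59, and the 2 points of *Ankrd1*, *Csrp3* and *Fhl1* nearly coincide; levels of different probe sets are not comparable.

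Other genes of the small proline-rich family did not differ to the same degree. Of 14 listed, 7 had a probe set of their own, and their median log2 ratio was 0.13, against 0.006 over all genes. *Sprr2h* had a log2 ratio of 0.86 (5.46 against 4.60), from a less specific probe set that near-identical *Sprr2* genes may share. *Sprr2k* had 0.14 and *Sprr3* had -0.09, both within the probe-set spread. *Sprr1b*, the closest relative by name, had 3.23 against 3.15 on the log2 scale, both under 3.80, the lower quartile of all values, and not shown to be above background. Of 13 other proteins of the cornified envelope and their transglutaminases, none was higher and 2 were lower beyond that spread at the brightest probe set, shares to set beside the 17.5% of all genes that were higher beyond it and the 15.5% that were lower. They were *Ppl*, periplakin, at -0.38 and *Tgm3*, a transglutaminase, at -0.27 (near 0 at its other probe set). The next in size was *Lce3c*, a late cornified envelope protein, at -0.19. Only 6 of the 13 reached the median level on the higher array, and low signal limits the count for the others. The count depends on the probe set for *Ivl*, involucrin, which had 0.09 at its brightest probe set (5.38 against 5.29) and 1.19, past 2-fold, at its other (5.49 against 4.30).

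Keratinocyte markers were measured beside them. Of 9 markers with a probe set, 2 were higher beyond the probe-set spread and none was lower (median -0.02). Among all genes the shares were 17.5% and 15.5%. Their summed linear signal was 492 with hAFS-CMHypo + Dox and 476 with Dox, a log2 ratio of 0.05. *Cdh1*, *Krt6a* and *Krt14* had the largest log2 ratios of those at or above the median level, 0.36, 0.29 and 0.09. Among their other probe sets, *Krt6a* had -0.07 (5.23 against 5.31) and *Krt14* had 0.29 (4.95 against 4.66), so the count depends on the probe set. RMA gives no value of 0, so no marker can be called absent.

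*Sprr1a* lies in the epidermal differentiation complex, a cluster of genes for skin barrier proteins. Its 6 nearest measured neighbours on each side, in the gene order of GRCm38.p6, had a median log2 ratio of 0.08 at their brightest probe sets. Of these 12 genes, 10 stayed within the probe-set spread. The exceptions were *Sprr2h*, the farthest on its side, and *Lce1b*, at -0.35. The nearest measured gene on the other side from *Sprr3*, *Ivl*, counts as within the spread only at its brightest probe set, and its other had 1.19 as given above. Only 4 of the 12 reached the median level on the higher array.

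**Figure D2:**
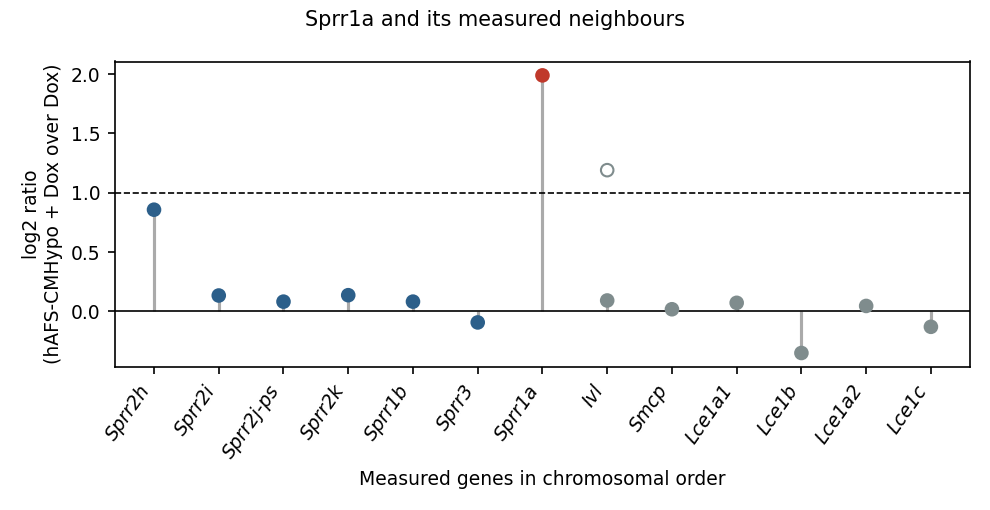
Log2 ratio (hAFS-CMHypo + Dox over Dox, vertical axis) of *Sprr1a* (red) and its 6 nearest measured genes on each side, in chromosomal order, with other *Sprr* genes in blue and the rest in grey; filled points are the brightest probe set of each gene, an open point is the other probe set of *Ivl*, and the dashed line marks 2-fold. *Sprr1a* stands at 1.99 and the filled points of the neighbours lie between -0.35 and 0.86, while the open point of *Ivl* lies at 1.19.

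The 3 muscle ankyrin repeat genes had different log2 ratios. *Ankrd23*, also known as the diabetes-related ankyrin repeat protein, had log2 values of 8.04 with hAFS-CMHypo + Dox and 7.44 with Dox. Its log2 ratio of 0.59, or 1.51-fold, ranked 404 among the rises, and 2.32% of all genes were higher by 1.5-fold or more. *Ankrd2*, which is best known from slow skeletal muscle, had log2 levels of 6.07 with hAFS-CMHypo + Dox and 5.72 with Dox. The log2 ratio of 0.35, or 1.27-fold, is close to the SD of 0.26 between probe sets at that level. *Ankrd1*, the cardiac member and a widely used marker of cardiomyocyte stress, was nearly level between the arrays. Its 2 probe sets had log2 values of 12.56 against 12.68 and of 12.39 against 12.41, log2 ratios of -0.13 and -0.03. The log2 ratio of *Ankrd23* exceeded that of *Ankrd1* by 0.72 and that of *Ankrd2* exceeded it by 0.47, and these differences have no replicate check.

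*Csrp3* and *Fhl1* showed little difference between the arrays. *Csrp3* had log2 values of 12.65 with hAFS-CMHypo + Dox and 12.79 with Dox, a log2 ratio of -0.14, about the SD of 0.13 between probe sets at high level. *Fhl1* had 13.21 on both arrays (log2 ratio -0.004). Its other probe set had 4.08 and 3.93, below the median of all values on both arrays. *Xirp1*, which is induced in stressed and injured muscle, had log2 levels of 9.68 with hAFS-CMHypo + Dox and 9.49 with Dox. The log2 ratio of 0.19 is within the probe-set spread. Of the 7 measured members, 3 were higher by more than 0.21 (*Sprr1a*, *Ankrd23* and *Ankrd2*), none was lower by it, and 4 lay within it. Over all genes, 17.5% were higher and 15.5% lower by as much.

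**Figure D3:**
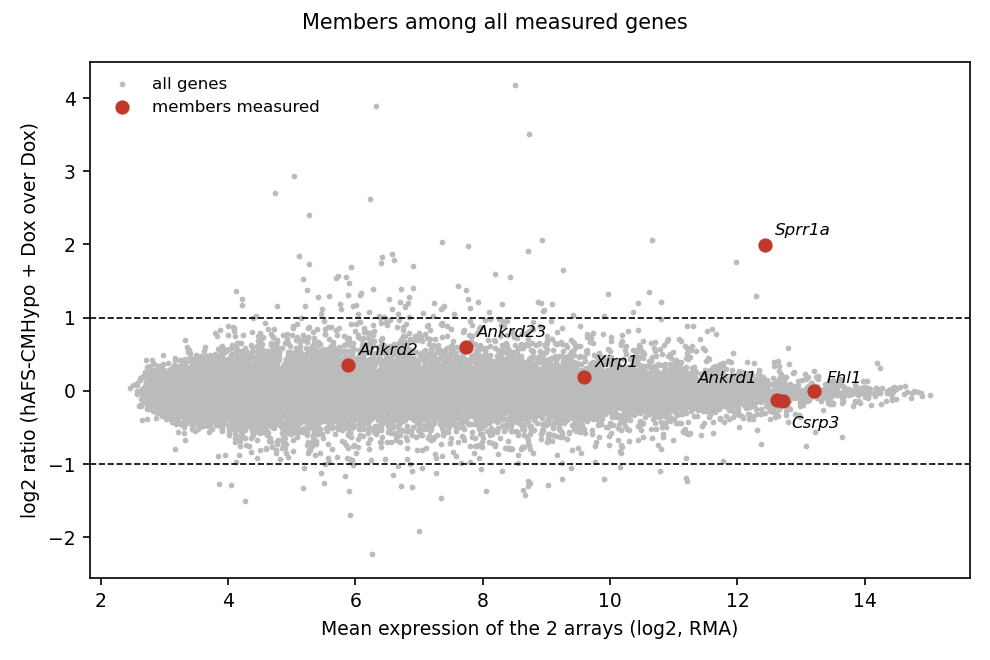
Log2 ratio (hAFS-CMHypo + Dox over Dox, vertical axis) of each of 18193 genes, plotted over the mean of both arrays (log2 expression, horizontal axis), with the 7 measured members in red and dashed lines at 2-fold. *Sprr1a* lies above the upper line at 1.99 and the other members lie between -0.14 and 0.59.

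The partners of these proteins in the sarcomere moved both ways. Of 20 measured genes of the Z-disc and the titin spring, 4 were higher and 5 lower beyond the probe-set spread (median -0.09). Among all genes the shares were 17.5% and 15.5%, so a split of this kind is not particular to the partners. None of the 20 reached 2-fold at its brightest probe set. Of the 11 within the spread, 3 had another probe set beyond it. *Flnc*, filamin C, which binds Xin proteins, had a log2 ratio of 0.82 (11.93 against 11.11), with 0.65 at its other probe set. *Tcap*, telethonin, which caps titin at the Z-disc and binds the muscle LIM protein, had -0.65 (8.69 against 9.35). *Ldb3*, a PDZ-LIM protein of the Z-disc, had -0.54, down to -1.11 among its 3 probe sets. These 3 genes did not share a direction. *Ttn*, titin itself, was named after its values were seen. It had -0.23 at its brightest probe set, with -0.94 to 0.01 over its 6 probe sets.

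Among 9 relatives of *Csrp3* and *Fhl1* with LIM domains, 3 were higher and 2 lower beyond the spread (median -0.09). Among all genes the shares were 17.5% and 15.5%. *Lmcd1*, a LIM protein of the heart that acts on calcineurin signalling, had a log2 ratio of 0.79 (10.12 against 9.33). *Fhl2*, the LIM protein most typical of heart, had -0.72 (12.00 against 12.73), so that *Fhl1* and *Fhl2* differed in their log2 ratios. *Fhl3* had 0.39 at a low level (5.89 against 5.50). Each of these 3 genes had 1 probe set. Of 15 cell junction and actin proteins of the intercalated disc, where Xin proteins reside, 14 stayed within the spread at their brightest probe set (median 0.02). Of these 14, 3 had another probe set beyond it. They were *Ctnna1*, α-catenin, with -0.72 at a probe set of low level (4.01 against 4.73), *Tln1*, talin, with -0.54 (8.94 against 9.49), and *Pkp2*, plakophilin, with 0.43 and -0.44 at its dimmer probe sets. *Jup*, plakoglobin, had 0.31, *Vcl*, vinculin, 0.19 and *Ctnnd1*, p120 catenin, 0.12 (-0.16 at the lowest of its 3 probe sets).

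Other genes known to respond to load or hypertrophic growth were also split. Of 10 measured, 6 were higher and 3 lower beyond the spread (median 0.27), and none reached 2-fold. Among all genes, 17.5% were higher and 15.5% lower beyond it. *Hbegf*, a growth factor of the EGF family, had a log2 ratio of 0.68 (11.23 against 10.55), *Tnc*, tenascin C, also 0.68 (0.30 at its other probe set) and *Thbs1*, thrombospondin 1, 0.40. The natriuretic peptide gene *Nppb*, the classical load marker of the ventricle, had -0.39 (12.31 against 12.70). *Nppa* had -0.10, *Acta1*, skeletal α-actin, -0.22 and *Myh7*, the β-myosin heavy chain, -0.27. These 4 genes were named after their values were seen, as the best-known markers of the fetal gene programme.

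Pathways known to act upstream of the members were examined next. Of 14 measured genes of the gp130 pathway, 8 were higher and 2 lower beyond the spread, and 3 were higher by 2-fold or more (median 0.39). The shares over all genes were 17.5%, 15.5% and 0.506%. *Il6* had a log2 ratio of 2.62 (7.55 against 4.92). *Osmr*, the oncostatin M receptor, had 1.66, with 0.98 and -0.04 at its other probe sets. The last of these lay under 3.80, the lower quartile of all values, on both arrays (3.60 against 3.65). *Socs3*, a feedback inhibitor of the pathway, had 1.04, and its 3 probe sets gave 1.00 to 1.12. The 4 probe sets of *Il6st*, which codes for gp130 itself, had ratios from 0.35 to 0.55, a gene named after its values were seen. The 2 lower genes were *Lifr*, at -0.26 (-0.35 to -0.26 over 3 probe sets), and *Il6ra*, at -0.23 (0.11 at its other probe set). *Jak1* and *Lif*, counted as higher, had -0.19 (7.56 against 7.75) and -0.03 (4.58 against 4.62, below the median of all values) at their lowest probe sets. The value of *Il6* with Dox lay under 5.10, the median of all values.

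SRF and its myocardin-family cofactors control many genes of the actin cytoskeleton. Of 12 genes of this pathway, 3 were higher and 4 lower beyond the spread (median -0.03). *Abra*, which activates SRF through actin, had a log2 ratio of -0.85 at a low level (4.50 against 5.34), and *Myocd*, myocardin, had -0.61 (7.82 against 8.42) and -0.73 at its other probe set. *Mrtfb*, a related cofactor, had 0.35 (0.05 at the lowest of its 3 probe sets). YAP and TAZ act with TEAD factors and count *Ankrd1* among their classical targets. Of 17 genes of this pathway, 4 were higher and 3 lower beyond the spread (median 0.05), and 3 of the other 10 had another probe set beyond it. The counts of both pathways stand beside 17.5% of all genes higher and 15.5% lower beyond the spread. *Tead2* had -0.42, *Vgll3*, a TEAD cofactor, 0.38 (0.02 to 0.68 over 3 probe sets) and *Tead4* -0.35 (0.44 at its other probe set).

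**Figure D4:**
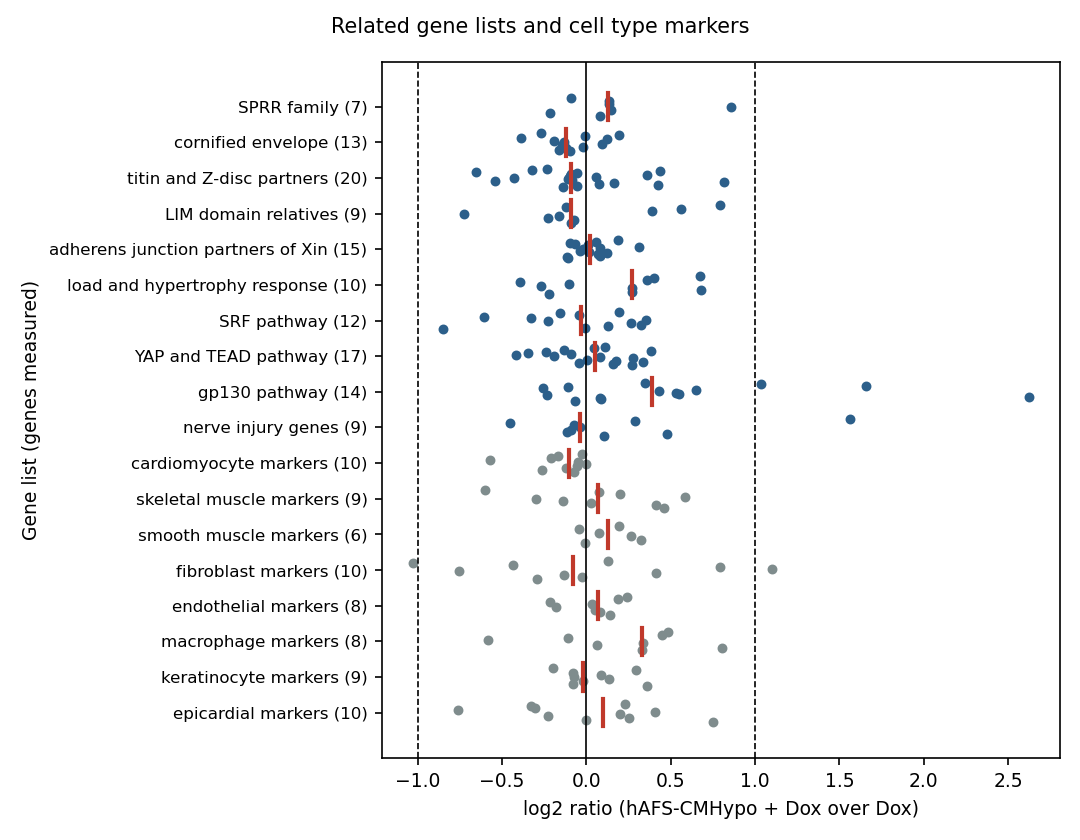
Log2 ratio (hAFS-CMHypo + Dox over Dox, horizontal axis) of each measured gene of 10 related lists (blue) and 8 lists of cell type markers (grey), with the median of each list as a red bar; the dashed lines mark 2-fold and the number of genes measured stands in brackets. The gp130 pathway has the highest median, 0.39, and the medians of the Z-disc, LIM and SRF lists lie between -0.09 and -0.03.

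Markers of other cells were measured beside these results, since a culture of ventricular cells can hold several types. The summed linear signal of 10 cardiomyocyte markers was 199000 with hAFS-CMHypo + Dox and 213000 with Dox, a log2 ratio of -0.10. Of these 10, none was higher and 2 were lower beyond the spread. *Pln*, phospholamban, had the largest difference among them at -0.57, down to -0.87 among its 3 probe sets. For fibroblast markers the summed signal was 16800 and 17000, with 3 of 10 genes higher and 4 lower beyond the spread. They ranged from 1.10 for *Lum* to -1.03 for *Tcf21* (0.18 at its other probe set). For macrophage markers it was 4850 on both arrays, with 5 of 8 higher and 1 lower (median 0.33), led by *Cd14* at 0.80. These counts stand beside 17.5% of all genes higher and 15.5% lower beyond the spread. Smooth muscle markers summed to 27900 and 27200, endothelial markers to 2470 and 2380, epicardial markers to 4080 and 4050, and skeletal muscle markers to 305 and 294. Of 6 smooth muscle markers, 2 were higher and none lower beyond the spread, and of 8 endothelial markers 1 was higher and 1 lower. For 10 epicardial markers the counts were 4 and 4, and for 9 skeletal muscle markers 3 and 2, beside the same shares of all genes. A sum of this kind is led by its brightest probe sets, such as that of *Lyz2* among the macrophage markers (11.80 against 11.91), and can hide changes in the others. The part of these cells in the difference of *Sprr1a* was not tested.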

How the data were processed

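Total RNA of mNVCM was hybridised to 1 Affymetrix mouse array per condition. The deposited log2 values were made by the authors with RMA and quantile normalization and were not normalized again. RMA is also named in the submitters' processing notes. Its version and the probe set definitions are not given in the sources consulted. That they are log2 was inferred from their range, 2.37 to 15.05. Symbols came from the platform annotation of the array and were brought up to date by Entrez ID from a RefSeq table of GRCm38.p6 (34754 of 34958 probe sets with 1 gene matched). The 932 probe sets with several genes and the 9211 without any were left out. Each gene was represented by its brightest probe set (highest mean over both arrays), and all probe sets of the members are reported.

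The members and the 18 gene lists were chosen with earlier results of these data known, and so was the rule for the genes named, which are the members, up to 3 genes of each list with the largest absolute log2 ratio among those at or above the median level, and the 2 genes on either side of *Sprr1a* in log2 ratio. The threshold of 2-fold is that of the study. The probe-set spread is an SD pooled over genes with several probe sets at or above the median. As no replicates exist, a shift under an alternative counted only if it exceeded this SD. Promoter sequences are from RefSeq on GRCm38.p6. The counting steps were tested on simulated data. Alternatives covered the fold threshold, low values, the choice and type of probe sets, centring and a lowess correction (span 0.3). The analysis ran in Python 3.11.15 with pandas 2.3.3, numpy 2.4.6, matplotlib 3.10.9 and statsmodels 0.14.6.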

Additional observations from a re-analysis of the deposited data

How the results depend on the processing

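No paired analysis was possible because there was 1 array per condition. Under the alternatives that give a value per gene or list, all 119 values of the 7 measured members and of the medians of the 10 related lists moved by less than the probe-set spread. The medians of the 8 marker lists were not recomputed. The log2 ratio of *Sprr1a* stayed between 1.99 and 2.00 and that of *Ankrd23* between 0.58 and 0.59. Each is read from 1 probe set above the median, so the alternatives for probe sets and low values could not move these ratios. The same holds for *Ankrd2*, *Csrp3* and *Xirp1*. The lowess correction shifted no ratio by more than 0.03 and centring shifted all by 0.002, so this steadiness is no check of the differences. With a threshold of 1.5-fold, 2 members were higher (*Sprr1a* and *Ankrd23*), beside 422 genes higher and 277 lower in all, and with 3-fold 24 genes were higher and 3 lower. With the probe set of largest change as a gene's value, 83 genes were lower by 2-fold against 39. Culture-to-culture variation was not measured, and low signal limits the other *Sprr* genes.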

Other observations

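Injured neurons raise *Sprr1a* together with a set of growth genes, and 9 of these were measured in mNVCM. *Tubb3*, neuronal β-tubulin, had a log2 ratio of 1.56 (6.63 against 5.07) from its only probe set. *Gadd45a*, a DNA damage response gene, had 0.48 and *Sox11*, a transcription factor, -0.45 (-0.95 to -0.15 over 6 probe sets). Of the 9 genes, 3 were higher and 1 lower beyond the probe-set spread (median -0.04), beside 17.5% and 15.5% of all genes. *Atf3*, a stress transcription factor, had 0.11.

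The AP-1 matches before *Sprr1a* were also counted before other genes, a comparison chosen after these matches were seen. Of 14452 measured genes with a promoter window, 40 held 2 or more AP-1 matches. Of these 40, 1 was higher by 2-fold (*Sprr1a* itself) and 1 was lower, and their median log2 ratio was 0.06. Of 928 genes with 1 match, 12 were higher by 2-fold or more (1.29%), *Il6*, *Selp* and *Fgl2* among them. Of 13484 without a match, 53 were higher (0.393%). Lower by 2-fold were 2 genes with 1 match (0.216%) and 27 without (0.2%). Among all 14452, 66 were higher (0.457%) and 30 lower (0.208%). This is a description of letters and log2 ratios and was not tested.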
